A study of Mus musculus with 3 samples.

Results

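The genes described here encode the contractile apparatus of smooth muscle and the proteins that tie actin to the rest of the cell. They comprise 45 genes chosen by name from the 56941 genes of the count table: contractile proteins, calcium sensitization genes, serum response factor (SRF) and its cofactors, and actin-linked adaptors. All 45 were found by symbol, and all 45 reached at least 1 CPM, the count scaled to the library size, in every library. For the description, 18 of them, most of which are used mainly by muscle cells, were called muscle-type members. The other 27, which most cell types use, were called broad members. The muscle-type members include Sncg, which neurons also express, and Des, a gene of muscle cells and brain pericytes.

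Messenger RNA was sequenced from microvascular fragments of mouse brain, obtained by breaking the tissue up mechanically and with enzymes and isolating the pieces of vessel. The 3 libraries form a single group of adult wild-type C57BL/6J mice with no treatment and no control, so no contrast between conditions exists. The design speaks of 3 animals and the labels number 3 replicates, each library made from 400 ng of total RNA; sex and exact age are not stated, and no sorting of cells is described. Depth was 128428355, 136672205 and 150449539 counts in replicates 1, 2 and 3, so a count of 0 allows up to 0.0231, 0.0215 and 0.0207 CPM (3 counts, counting error only).

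The source was checked against lists of marker genes. All 10 endothelial markers were detected at 1 CPM in every library, with summed levels of 15392 to 18886 CPM, and so were all 10 pericyte markers, at 3415 to 3609 CPM. All 8 microglial markers (5179.6 to 6807 CPM), all 8 astrocyte markers (961 to 1761 CPM) and all 8 fibroblast markers (187 to 235 CPM) were detected too. Markers of skeletal and cardiac muscle summed to 9.26 to 12.5 CPM, with 2 of 10 detected and Myh4 without a count. Pituitary markers, of which 3 of 8 were detected in every library, summed to 39.1, 1607 and 49.5 CPM in replicates 1, 2 and 3, so replicate 2 stood apart. All 5 erythroid markers were detected, and summed to 1088, 134 and 62.5 CPM, so replicate 1 stood apart.

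Smooth muscle cells shorten when myosin pulls on actin filaments. Calcium bound to calmodulin activates myosin light chain kinase, which phosphorylates the regulatory light chain, and myosin phosphatase reverses this. Inhibition of the phosphatase raises the force at a given calcium level, which is known as calcium sensitization. Many genes of the apparatus are controlled by SRF, which binds a motif called the CArG box and acts with myocardin or with the actin-sensing cofactors MRTF-A and MRTF-B. In brain, smooth muscle cells with this apparatus wrap arteries and arterioles, whereas pericytes of mid-capillaries are known for having little of it.

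The contractile and actin-linking genes stood high among the detected genes. Their median level was 227 CPM, with library medians of 227, 202 and 240 CPM, beside 26.7 CPM over all 13211 genes detected at 1 CPM. To compare genes with each other, CPM was divided by exonic length; on that scale the median was 50.3 CPM per kilobase for the members and 5.88 CPM per kilobase for all detected genes with a known length. The muscle-type members had a median of 26.4 CPM per kilobase, and 16 of 18 lay above the median of the detected genes. The broad members had a median of 55.8 CPM per kilobase, and 25 of 27 lay above it. Together the members took 2.27 ± 0.0698% of all counts (SD, n = 3), of which the muscle-type members took 0.715 ± 0.0412% and the broad members 1.56 ± 0.0301%. In a bulk sample, fewer cells of a type and less RNA per cell cannot be told apart, so these levels give no share of smooth muscle cells. At 100 CPM or more in every library stood 29 of the 45 members and 14.9% of the detected genes. Actb, Acta2, Flna, Vim, Myh11, Myl6 and Myl9 were the 7 members at 1000 CPM or more in every library. Below the median CPM of the detected genes lay 4 members: Actg2, Tagln, Myocd and Pln.

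**Figure D1:**
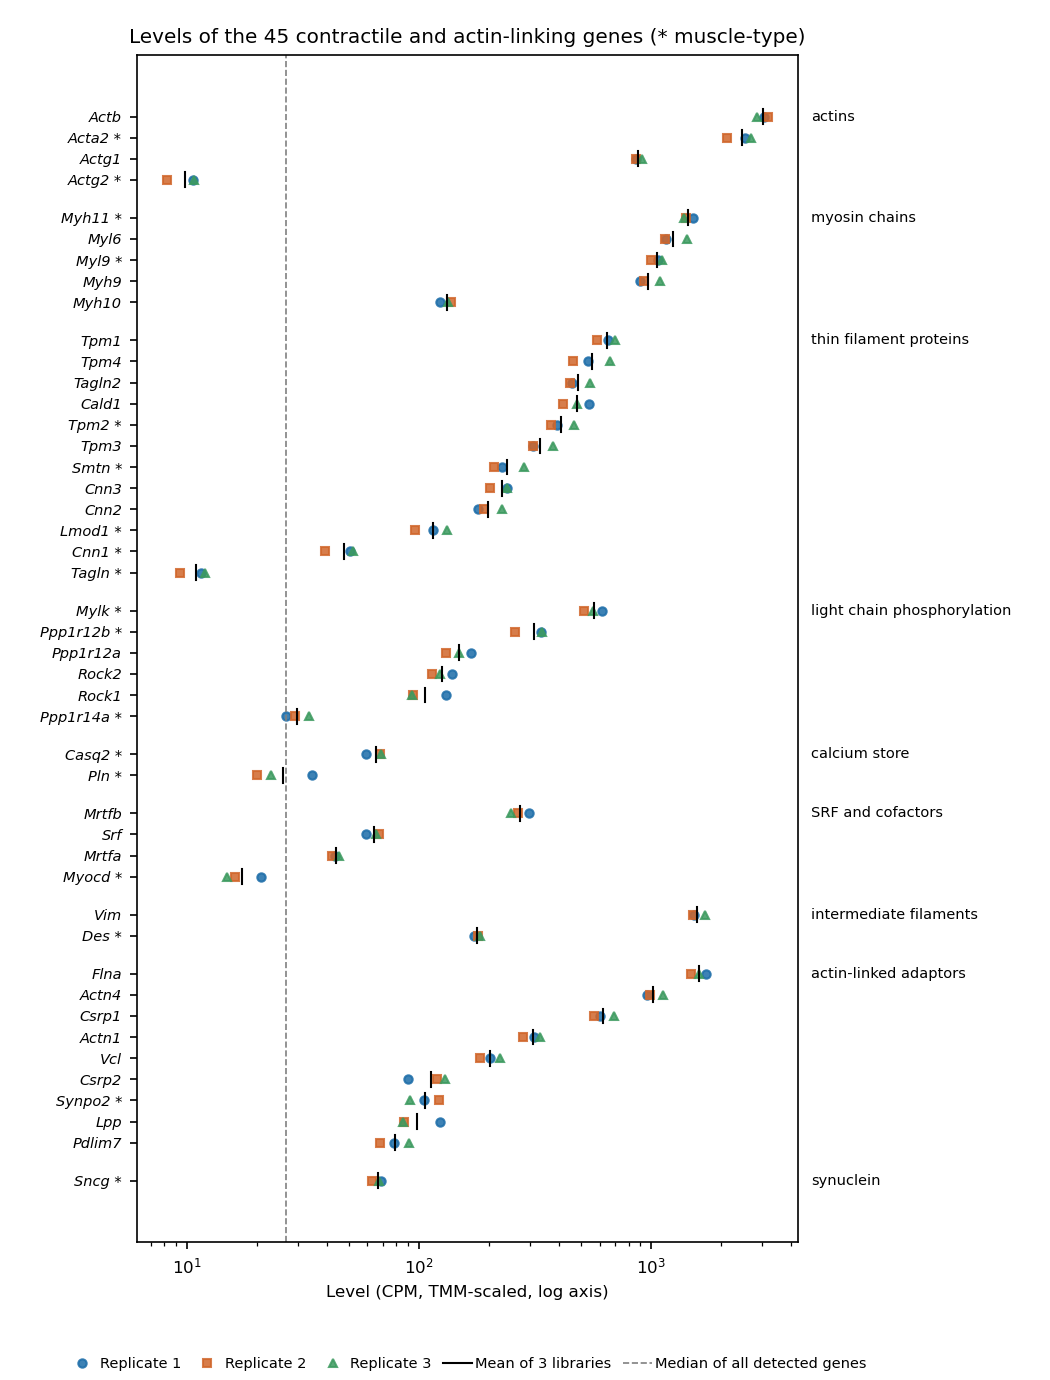
Level of each of the 45 genes in CPM (log axis), by role, with a symbol for each of the 3 libraries and a line at their mean; asterisks mark muscle-type members and the dashed line is the median of all detected genes, 26.7 CPM. Mean levels ran from 9.86 CPM for Actg2 to 3037 CPM for Actb, and the libraries of a gene lay close together beside that range.

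Among the regulators, Mrtfb was the highest of the SRF cofactors and Myocd the lowest. Srf, the gene of the transcription factor itself, had 59.1, 67.1 and 65.5 CPM in replicates 1, 2 and 3. Mrtfb, the gene of MRTF-B, had 298, 268 and 249.6 CPM, with replicate 1 the highest. Mrtfa, the gene of MRTF-A, had 43.6, 42.4 and 45.3 CPM. Its libraries lay close together. Myocd, the myocardin gene of cardiac and smooth muscle, had 20.96, 16.1 and 14.9 CPM, with replicate 1 the highest again. Per kilobase of exon, Mrtfb averaged 30.3 ± 2.70 CPM, Srf 22.1 ± 1.47 CPM, Mrtfa 7.16 ± 0.240 CPM and Myocd 2.70 ± 0.497 CPM (SD, n = 3). The order of the 3 cofactors was the same in each library and their ranges did not overlap. Of their summed level per kilobase, Mrtfb made up 75.4 ± 1.15%, Mrtfa 17.9 ± 1.70% and Myocd 6.70 ± 0.701%. Myocd was the lowest of all 45 members per kilobase.

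Because SRF acts through the CArG box, the promoters of the members were searched for it: CC, then 6 bases that are each A or T, then GG, a pattern that reads as the same motif on both strands. RefSeq gives windows of 300 bases, from 250 before to 50 after a start, for 38 of the 45 members (47 windows, build GRCm38.p6, which differs from the build of the counts). Actb, Actg2, Myh11, Tagln, Csrp2, Rock1 and Myocd had no window and were not searched. An exact box was found in 6 of 47 member windows (12.8%), those of Srf, Actg1, Myl9, Cnn2, Vcl and Myl6, and in 1.63% of all 32851 RefSeq windows. Myl9 was the only one among 14 muscle-type members with a window. In a separate search, exactly 1 of the 6 middle bases had to be C or G, so exact boxes were not counted. Such a match was found in 6 of 47 member windows (12.8%) and in 8.50% of all windows, and Acta2 held 2 such matches. Of these member windows, only that of Myl9 also held an exact box. A match is a run of letters and not a measured binding site, and no match says only that these letters are not in this window.
The Srf, Actg1, Myl9 and Acta2 windows are shown as the gene of the factor itself, a cytoplasmic actin and a pair of muscle-type genes, with the boxes in capitals (for Acta2, the matches with 1 base off); all but Myl9 were chosen after their sequences were seen. The Srf window is chr17:46556113-46556412 on the minus strand, Actg1 chr11:120348446-120348745 on the minus strand, Myl9 chr2:156775214-156775513 on the plus strand and Acta2 chr19:34255324-34255623 on the minus strand.
Srf: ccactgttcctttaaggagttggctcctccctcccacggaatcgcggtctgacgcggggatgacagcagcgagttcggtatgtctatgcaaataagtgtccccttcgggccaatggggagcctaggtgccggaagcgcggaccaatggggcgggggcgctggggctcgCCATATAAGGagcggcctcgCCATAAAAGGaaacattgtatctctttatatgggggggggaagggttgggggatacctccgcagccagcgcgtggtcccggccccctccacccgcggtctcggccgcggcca
Actg1: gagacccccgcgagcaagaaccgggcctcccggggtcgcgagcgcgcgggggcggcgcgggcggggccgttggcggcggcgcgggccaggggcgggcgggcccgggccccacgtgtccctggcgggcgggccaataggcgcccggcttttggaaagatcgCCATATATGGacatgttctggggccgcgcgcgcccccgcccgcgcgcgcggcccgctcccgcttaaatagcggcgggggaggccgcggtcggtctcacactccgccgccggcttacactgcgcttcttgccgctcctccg
Myl9: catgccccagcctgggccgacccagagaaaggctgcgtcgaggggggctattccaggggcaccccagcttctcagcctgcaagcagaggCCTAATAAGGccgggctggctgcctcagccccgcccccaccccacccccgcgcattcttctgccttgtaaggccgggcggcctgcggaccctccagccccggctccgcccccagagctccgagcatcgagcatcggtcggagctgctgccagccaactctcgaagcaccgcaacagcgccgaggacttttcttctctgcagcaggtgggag
Acta2: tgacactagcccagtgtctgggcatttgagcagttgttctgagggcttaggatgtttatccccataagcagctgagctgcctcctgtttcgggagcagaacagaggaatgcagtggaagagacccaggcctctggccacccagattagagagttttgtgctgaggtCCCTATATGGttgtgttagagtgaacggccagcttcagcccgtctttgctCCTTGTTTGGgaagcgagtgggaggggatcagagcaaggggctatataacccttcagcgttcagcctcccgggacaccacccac
For Cnn2 (window chr10:79988350-79988649, plus strand), Vcl (chr14:20929148-20929447, plus strand) and Myl6 (chr10:128492960-128493259, minus strand), 30 bases around the box are shown, so that the middle letters can be compared.
Cnn2: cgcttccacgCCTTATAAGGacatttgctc
Vcl: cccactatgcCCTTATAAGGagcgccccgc
Myl6: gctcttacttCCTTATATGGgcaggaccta
The first base of the box lay 82 and 62 bases before the start in Srf, 90 in Actg1, 161 in Myl9, 56 in Cnn2, 227 in Vcl and 50 in Myl6. Cnn2 and Vcl held the same 10 letters.

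Smooth muscle actin stood beside beta-actin at the top of the members. Acta2, the alpha-actin of vascular smooth muscle, had 2549, 2124 and 2709 CPM in replicates 1, 2 and 3. Actb, the beta-actin that nearly every cell makes, had 3064, 3191 and 2855 CPM. Acta2 was lowest in replicate 2, where Actb was highest. In CPM per kilobase of exon, Acta2 averaged 1120.5 ± 138 CPM and Actb 1134 ± 63.2 CPM (SD, n = 3). Their ranges overlapped, and the ratio of Acta2 to Actb per kilobase was 1.01, 0.812 and 1.16 in replicates 1, 2 and 3. Actg1, cytoplasmic gamma-actin, had 864, 866 and 912 CPM, at 331 ± 10.4 CPM per kilobase. Its count is uncertain, because 23.3% of its 150-base windows, the read length, also occur in transcripts of Gm12715, Gm8399 and Gm16385. Actg2, the gamma-actin of gut and bladder smooth muscle, had 10.6, 8.18 and 10.8 CPM, and Acta2 exceeded it 178 ± 6.93 times per kilobase. Acta2 made up 38.5 ± 3.79% of the counts of the 4 actins, or 43.1 ± 3.93% of their level per kilobase. The share per kilobase was 44.03%, 38.9% and 46.6% in replicates 1, 2 and 3, lowest in replicate 2.

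Smooth muscle myosin was the main heavy chain in each library. Myh11, the heavy chain that defines smooth muscle, had 1521, 1410.0 and 1383 CPM in replicates 1, 2 and 3. Myh9, a non-muscle heavy chain, had 899, 931 and 1089.8 CPM, and was highest where Myh11 was lowest. Myh10, the other non-muscle heavy chain among the members, had 124, 138 and 133 CPM. Per kilobase of exon, Myh11 averaged 189 ± 9.59 CPM, Myh9 75.3 ± 7.89 CPM and Myh10 12.6 ± 0.689 CPM (SD, n = 3), and the ranges of the 3 genes did not overlap. Myh11 made up 56.6 ± 3.37% of the counts of the 3 heavy chains and 68.3 ± 2.94% of their level per kilobase. Myl9, a regulatory light chain of smooth muscle, had 1068, 1003 and 1111 CPM. Myl6, the essential light chain of smooth and non-muscle myosin, had 1159, 1153 and 1431 CPM, with replicate 3 the highest. Per kilobase, Myl9 averaged 913 ± 46.8 CPM and Myl6 391 ± 49.9 CPM, and these ranges did not overlap. Acta2 exceeded Myl9 1.22 ± 0.0912 times and Myh11 5.93 ± 0.790 times per kilobase.

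**Figure D2:**
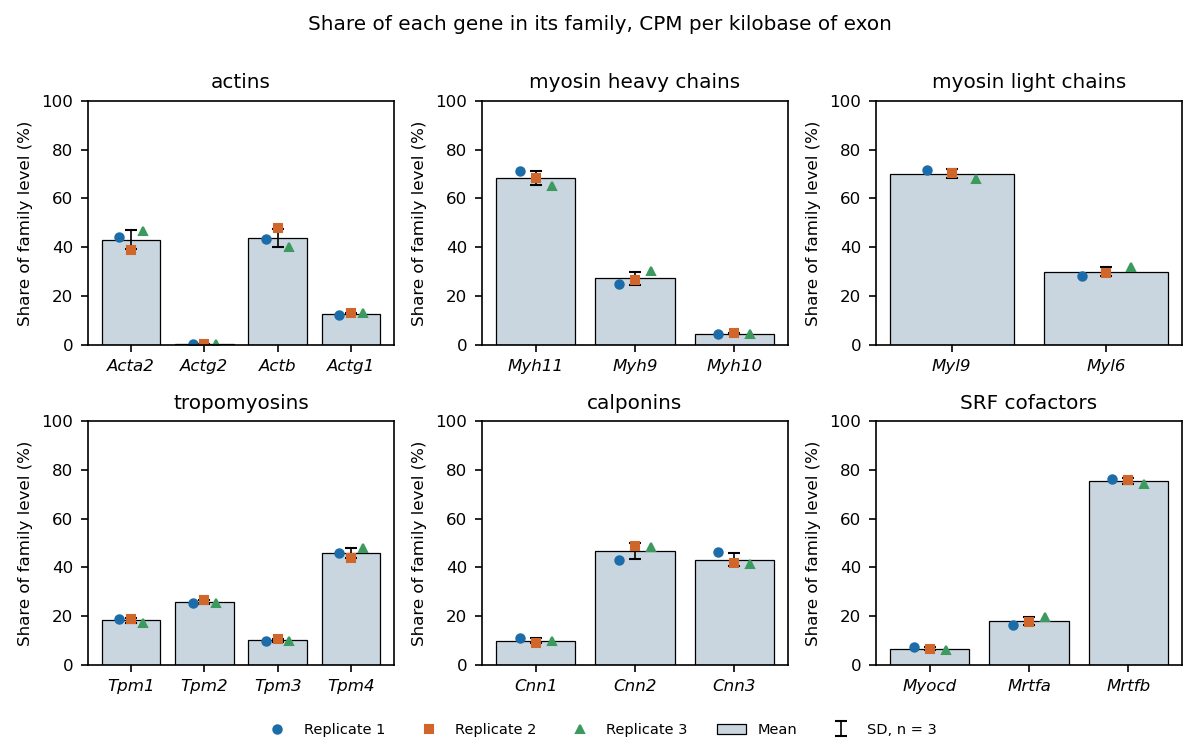
Share of each gene in the summed level of its family, in CPM per kilobase of exon (%), as mean (bars), SD over 3 libraries (error bars) and single libraries (symbols). Acta2 and Actb had 43.1% and 43.8% of the actin level, Myh11 had 68.3% of the heavy chain level, Myl9 70.1% of the light chain level and Mrtfb 75.4% of the cofactor level.

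Tropomyosins lie along the actin filament and control access of myosin, and all 4 genes of the family were expressed. Tpm4, the form used by many non-muscle cells, had 537, 462 and 668 CPM in replicates 1, 2 and 3. Tpm2, the beta-tropomyosin of muscle, had 394, 369 and 465 CPM. Tpm1, the alpha-tropomyosin, had 650.2, 584 and 701 CPM. Replicate 2 was the lowest for each of these. Tpm3, the fourth gene, had 311, 309 and 378 CPM. Relative to exonic length, Tpm4 made up 45.9 ± 1.99% of the tropomyosin level, Tpm2 25.8 ± 0.708%, Tpm1 18.3 ± 1.04% and Tpm3 10.02 ± 0.548%. The ranges of these shares did not overlap. Tpm3 shares 10.2% of its 150-base windows with Tpm3-rs7 and Tpm4 shares 5.11% with Gm7809, so reads could be split between them. Cald1, the caldesmon gene whose product inhibits myosin on the filament, had 538, 416 and 479 CPM, with replicate 1 the highest.

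Calponins bind actin and slow the myosin that moves along it. Cnn1, the smooth muscle calponin, had 50.6, 39.5 and 52.1 CPM in replicates 1, 2 and 3. Cnn2, a calponin of many cell types, had 179.6, 190.3 and 227 CPM, with replicate 3 the highest. Cnn3, the third calponin, had 239, 202 and 239.9 CPM. Per kilobase of exon, Cnn1 made up 9.99 ± 0.881% of the calponin level, Cnn2 46.8 ± 3.37% and Cnn3 43.2 ± 2.62%. The ranges of Cnn2 and Cnn3 overlapped, while Cnn1 lay below both. Smtn, the gene of smoothelin, a cytoskeletal protein of contractile smooth muscle, had 227, 211 and 283 CPM. Lmod1, a leiomodin that nucleates actin filaments in smooth muscle, had 115, 96.1 and 133 CPM. Both were lowest in replicate 2 and highest in replicate 3.

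The transgelin genes stood far apart. Tagln, the gene of the smooth muscle protein SM22-alpha, had 11.6, 9.31 and 11.9 CPM in replicates 1, 2 and 3. Tagln2, its relative in many cell types, had 458, 448 and 544 CPM. On the scale of CPM per kilobase, Tagln averaged 5.50 ± 0.716 CPM and Tagln2 232 ± 25.3 CPM (SD, n = 3). The Tagln count is uncertain, since 67.9% of its exonic length in GENCODE M21 lies under exons of the opposite strand, 62.4% under Gm48529 and 5.43% under Pcsk7. The strand setting of the counting is not given in the sources used here, and without strand, reads of such partners cannot be told apart. Gm48529 had 149, 147 and 174 counts. The whole Tagln level divided by the exon outside the overlap gave 17.1 CPM per kilobase. That value takes every read to lie there, since reads were not sorted by position. Acta2 exceeded Tagln 199.7, 207 and 205 times per kilobase of whole exon in replicates 1, 2 and 3.

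The genes that set light chain phosphorylation were all detected. Mylk, the light chain kinase, had 618, 516 and 565 CPM in replicates 1, 2 and 3. Ppp1r12b, a subunit that targets myosin phosphatase to myosin, had 336, 260.5 and 339.7 CPM. Ppp1r12a, the other such subunit among the members, had 167, 130.3 and 149 CPM. Replicate 2 was the lowest for all 3 genes. Per kilobase of exon, Mylk averaged 50.3 ± 4.50 CPM, Ppp1r12b 20.8 ± 2.98 CPM and Ppp1r12a 18.5 ± 2.31 CPM, and the ranges of both subunits overlapped. Ppp1r14a, the gene of the phosphatase inhibitor CPI-17, had 26.7, 29.3 and 33.7 CPM. Rock1 had 131, 94.2 and 93.2 CPM, with replicate 1 apart from the other two. Rock2 had 139, 114 and 124 CPM. Per kilobase, Rock2 made up 60.9 ± 2.68% of the summed level of Rock1 and Rock2.

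The calcium store genes differed in which library was high. Casq2, the gene of calsequestrin, which binds calcium in the sarcoplasmic reticulum, had 59.1, 67.9 and 68.9 CPM in replicates 1, 2 and 3. Pln, the gene of phospholamban, which restrains the calcium pump, had 34.6, 20.1 and 23.02 CPM. Replicate 1 was the high library for Pln and the low one for Casq2. Pln had the widest relative spread of all members, with a coefficient of variation of 29.7%. Of its exonic length, 64.7% lies under opposite-strand exons of Gm47644 and Cep85l, which leaves the Pln count as uncertain as that of Tagln.

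Both intermediate filament genes varied little between mice. Des, the desmin gene of muscle cells and brain pericytes, had 173, 179.5 and 184 CPM in replicates 1, 2 and 3. Vim, the vimentin gene of endothelial and mesenchymal cells, had 1532, 1510.4 and 1704 CPM. In CPM per kilobase of exon, Vim exceeded Des 7.003 ± 0.333 times. The coefficient of variation was 3.25% for Des and 6.72% for Vim.

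The adaptors ranged from abundant filamin to low LIM proteins. Flna, which crosslinks actin into networks, had 1734, 1483 and 1606 CPM in replicates 1, 2 and 3. Actn4, a non-muscle alpha-actinin, had 961, 989 and 1125 CPM. Actn1, the other alpha-actinin among the members, had 313, 281 and 332 CPM and made up 25.02 ± 1.35% of the level of the pair per kilobase. Flna was lowest in replicate 2, as was Actn1. Vcl, the vinculin gene of cell adhesions, had 202, 184 and 224 CPM; 25.5% of its exonic length lies under exons of Ap3m1. Csrp1, a LIM protein of smooth muscle, had 602, 569.6 and 695 CPM, or 318 ± 33.3 CPM per kilobase, a range that overlapped that of Actg1. Csrp2, its relative, had 89.97, 119 and 129.5 CPM and made up 14.04 ± 2.02% of the level of the pair per kilobase. Replicate 1 was low for Csrp2. Lpp, a zyxin relative at focal adhesions, had 124, 86.6 and 85.1 CPM, with replicate 1 high. Synpo2, the gene of the actin-bundling protein myopodin, had 105, 122 and 91.2 CPM. Pdlim7, a PDZ and LIM protein that binds the actin cytoskeleton, had 78.3, 67.8 and 90.2 CPM. In replicate 2, Synpo2 was at its highest and Pdlim7 at its lowest. Sncg, the gamma-synuclein gene, which neurons also express and which was counted as muscle-type, had 68.7, 62.9 and 67.3 CPM, or 77.8 ± 3.52 CPM per kilobase, where it overlapped Cnn2 and Myh9.

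Ordered per kilobase of exon, the members began with Actb, Acta2, Myl9 and Myl6 and ended with Actg2, Rock1, Tagln, Lpp and Myocd. Of the 44 pairs of neighbours in that order, 33 had ranges over the 3 libraries that overlapped and 11 did not. Gaps stood below Acta2, below Myl9 and below Myl6 at the top, and above Myocd at the bottom. From Vim to Tagln2, and from Mrtfb to Pdlim7, each gene overlapped its next neighbour, although genes farther apart in those stretches, such as Vim and Tagln2 or Mrtfb and Pdlim7, did not overlap.

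The dispersion test called no member variable between mice. It set the spread of each gene over the 3 libraries against that of genes of like abundance (edgeR's quasi-likelihood, upper tail, Benjamini-Hochberg adjustment over 18087 genes). It called 0 of 45 members and 15 genes in all, 0.0829% of those tested, at an adjusted p of 0.05, and 0.900 was the lowest edgeR adjusted p of a member. At an unadjusted p of 0.05 stood 2 members, Pln (edgeR adjusted p = 0.900) and Lpp (edgeR adjusted p = 0.952), beside 5.18% of all genes. DESeq2 marked 0 members as dispersion outliers, beside 0.449% of the genes with a count. Genes of the pituitary and erythroid lists were among the calls: Gh, Prl, Cga, Pomc, Chga and Scg2 from the pituitary list, and Hbb-bs, Hba-a1, Hba-a2, Hbb-bt and Alas2 from the erythroid list. A member that was not called is not shown to be constant. The ratio of the highest to the lowest library was at most 1.72 among the members, and the power of the test at that size was not assessed. The coefficient of variation had a median of 10.9% over the members and 9.59% over the detected genes, and it was under 10% for 20 of 45 members and for 52.6% of the detected genes. Besides Pln, Lpp (22.2%) and Rock1 (20.1%) exceeded 20% among the members, as did 14.1% of the detected genes.

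Many of the small differences between libraries ran in the same direction. Replicate 2 held the lowest CPM for 28 of 45 members (62.2%), 12 of 18 muscle-type and 16 of 27 broad, beside 30.8% of the detected genes. In the thin filament group, with TMM scaling, it was the lowest library for 11 of 12 genes, all but Cnn2, beside the same 30.8%. Replicate 3 was the highest for 11 of 12, all but Cald1, beside 36.8% of the detected genes. For Cnn3 that was nearly a tie, with 239.2 CPM in replicate 1 and 239.9 CPM in replicate 3. Both counts for this group were made with TMM scaling only. Over all 45 members, DESeq2 size factors gave the same counts as TMM. Replicate 2 was lowest for 28, beside 30.5% of the detected genes, and replicate 3 highest for 29, beside 38.1%. The mean deviation from the gene mean on the log2(CPM + 1) scale was 0.06, -0.12 and 0.06 for the muscle-type members in replicates 1, 2 and 3. For the broad members it was 0.01, -0.09 and 0.08, and over all detected genes 0.0088, -0.0049 and -0.0039. With CPM scaled by library totals alone, replicate 2 was lowest for 26 of 45 members, beside 21.7% of the detected genes, and the muscle-type mean there was -0.09. Replicate 3 was highest for 29 of 45 members with TMM scaling, beside 36.8% of the detected genes, and for 19 with library totals, beside 22.8%. Replicate 2 is also the library with the highest sum of pituitary markers, 1607 CPM. The microglial markers summed to 6807, 5179.6 and 6323 CPM in replicates 1, 2 and 3, and all 8 were lowest in replicate 2. The fibroblast markers summed to 235, 187 and 198 CPM, and 6 of 8 were lowest there. The astrocyte markers summed to 1593, 1761 and 961 CPM, the pericyte markers to 3546, 3609 and 3415 CPM and the endothelial markers to 15392, 18003 and 18886 CPM. Of these, 1 of 8, 0 of 10 and 1 of 10 were lowest in replicate 2, while 6 of 8, 8 of 10 and 3 of 10 were highest there. The nearly even pericyte sum thus hides that most pericyte markers were highest in replicate 2. No marker of the 5 lists was without a count. The part of these in the result was not tested. Members of a group share libraries and pathways, and with 3 mice these counts are a description.

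**Figure D3:**
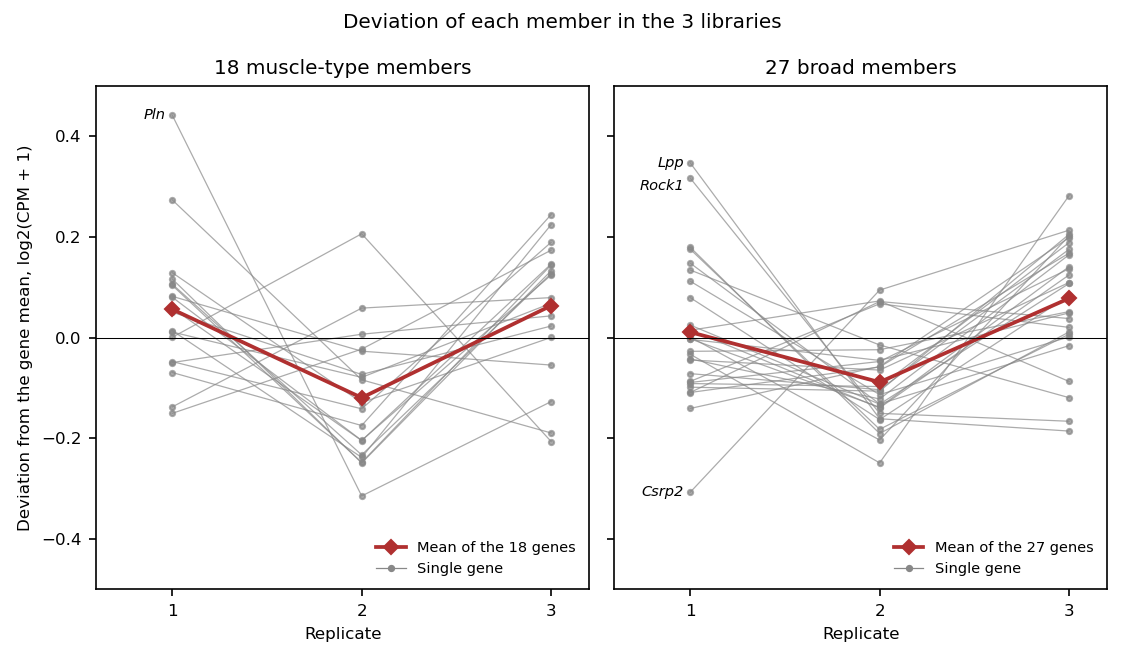
Deviation of each member from its own mean in the 3 libraries, on the log2(CPM + 1) scale, for the 18 muscle-type (left) and 27 broad members (right); thin lines join the values of 1 gene and the red line is the mean. The mean in replicate 2 was -0.12 for muscle-type and -0.09 for broad members, while Pln, Lpp and Rock1 were high and Csrp2 low in replicate 1.

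Exonic length went along with the difference between replicates 1 and 3. Of the 19 members with 6 kb of exon or more, 10 (52.6%) were highest in replicate 1, beside 44.1% of the detected genes of that length: Myh11, Cald1, Mylk, Ppp1r12a, Rock1, Rock2, Myocd, Mrtfb, Flna and Lpp. Of the 18 members under 3 kb, 14 (77.8%) were highest in replicate 3, beside 45.2% of such detected genes. All 8 members of 3 to 6 kb were highest there too, beside 38.7%. The median difference, replicate 1 minus replicate 3 on the log2(CPM + 1) scale, was -0.12 for members under 3 kb, -0.18 for those of 3 to 6 kb and 0.13 for those of 6 kb or more. Over all detected genes the same classes had -0.09, -0.03 and 0.05. With library totals in place of TMM scaling, an alternative chosen after seeing the data, 8 of 18, 6 of 8 and 5 of 19 members of these classes were highest in replicate 3. The share of the detected genes was then 29.6%, 23.5% and 16.5%. The median differences with library totals were -0.05, -0.11 and 0.20 for the members and -0.02, 0.03 and 0.12 for the detected genes, so the sign of the detected genes of 3 to 6 kb depended on the scaling. Across genes, the Spearman rank correlation between length and that difference was 0.45 over the 45 members and 0.21 over 12813 detected genes, as a description: the genes share the same libraries. Mitochondrially encoded genes took 3.29%, 1.75% and 1.65% of the counts in replicates 1, 2 and 3, so replicate 1 stood apart. The part of that share, and of RNA quality, in these differences was not tested.

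**Figure D4:**
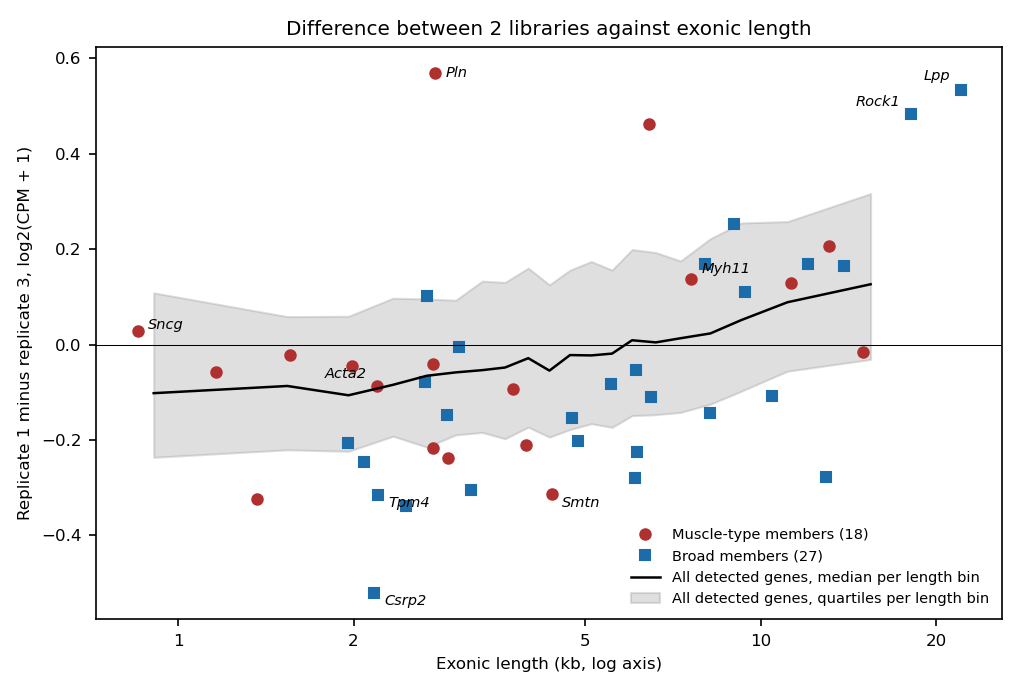
Difference between replicate 1 and replicate 3 in log2(CPM + 1) against exonic length in kb (log axis) for muscle-type and broad members, over the median (line) and quartiles (band) of all detected genes in bins of length. Long members such as Lpp and Rock1 lay above 0 and short ones such as Csrp2 and Tpm4 below it, with Pln a short gene above 0.

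Other genes of the same pathways came from lists drawn up for this description. Of 11 other actins and myosin chains, 5 were detected. The ubiquitous regulatory light chains Myl12a and Myl12b averaged 186 ± 26.5 CPM and 12.3 ± 3.30 CPM (SD, n = 3). The non-muscle heavy chain Myh14 averaged 15.7 ± 3.91 CPM, and the light chains Myl4 and Myl6b 8.83 ± 0.818 CPM and 1.98 ± 0.248 CPM. Genes of striated muscle were low: Myh7 averaged 1.08 ± 0.455 CPM, Myl2 0.687 ± 0.0746 CPM, Acta1 0.0819 ± 0.0284 CPM, Myl7 0.0707 ± 0.0260 CPM and Myh6 0.0577 ± 0.0368 CPM, and Actc1 had no count. All of these levels lay below those of Acta2 and Myh11 in every library.

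Relatives of the phosphorylation genes were measured too. The third phosphatase targeting gene, Ppp1r12c, averaged 199 ± 16.4 CPM, and the CPI-17 relatives Ppp1r14b and Ppp1r14c averaged 26.7 ± 1.33 CPM and 3.96 ± 0.513 CPM. Of the relatives of Mylk, Mylk4 averaged 3.39 ± 0.301 CPM, Mylk3 0.0799 ± 0.0771 CPM and Mylk2 0.0523 ± 0.0196 CPM. Ilk, the integrin-linked kinase gene, had 1.01, 0.851 and 1.32 CPM; 89.7% of its exonic length lies under exons of the opposite strand, so that count is uncertain.

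Of 28 genes of focal adhesions and Z-lines, 24 were detected, led by the talin gene Tln1 (598 ± 20.9 CPM). The muscle filamin Flnc averaged 4.33 ± 0.692 CPM. Of genes of striated muscle, Actn3 averaged 0.140 ± 0.0481 CPM, Actn2 0.106 ± 0.0200 CPM, Myoz1 0.0420 ± 0.0277 CPM and Csrp3 0.0212 ± 0.0246 CPM. Of 10 SRF partners and MEF2 factors, 8 were detected. The ternary complex factor gene Elk3 averaged 271 ± 13.98 CPM and Mef2a 189 ± 43.6 CPM, whereas Mef2b averaged 0.197 ± 0.0771 CPM and Prdm6 0.105 ± 0.0687 CPM. The edgeR dispersion test called 0 genes in the list of other actins and myosin chains (7 tested). It also called 0 in that of focal adhesions and Z-lines (26 tested) and in that of SRF partners and MEF2 factors (9 tested). Over all genes tested it called 0.0829%, so 0 calls say little about lists of this size.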

How the data were processed

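The values as deposited are raw counts, 1 whole number per gene symbol and library. Subread 1.4.6-p5 and featureCounts are named for GRCm39, per the submitters' processing notes. Libraries were stranded and polyA-selected with paired reads of 150 bases, per the labels' protocols. For the aligner, annotation release, strand setting and handling of reads with several positions, nothing is given in the sources used here. Whether the replicates are separate preparations rests on the design text.

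CPM were computed with TMM effective library sizes (edgeR 4.0.16, R 4.3.3; factors 1.01, 1.02 and 0.965), and levels are mean ± SD over 3 libraries. A gene was detected at 1 CPM in every library. The dispersion test was an intercept-only quasi-likelihood fit after filterByExpr, with each quasi-dispersion set against the trended prior in an upper-tail F test. It was also run on simulated data, but only with shifts larger than the differences between libraries of any member. That run gives no power for differences of the size the members showed. Alternatives used DESeq2 1.42.0. Exonic lengths, overlaps and shared 150-base windows came from GENCODE M21 (GRCm38, 48985 genes matched by symbol, holding 98.2% of counts), so no gene coordinates are given; promoters came from RefSeq. Python 3.11.15 with pandas 2.3.3 was used.

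All members are named; of the pathway lists, the 2 highest and 2 lowest genes and relatives of members are named (some items are not reported here), and so are the marker genes that the dispersion test called, while the other marker genes are given as sums. The members and lists were chosen with earlier results of these data known. Members with more than 1 promoter window were searched in each.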

Additional observations from a re-analysis of the deposited data

How the results depend on the processing

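All 45 members stayed detected with DESeq2 size factors, with library totals and at 5 CPM. At 0.5 CPM and without any 1 replicate they stayed so as well, which follows almost entirely from the definition of detection. The lowest value of a member was 8.18 CPM, for Actg2 in replicate 2, so only the setting of 5 CPM came near it. At an unadjusted p of 0.05, the alternative edgeR fits held 1 to 4 of the 45 members. The 4 came without replicate 1, beside 1073 of 18436 genes tested. The 1 came with a robust prior, beside 785 of 18087 genes, and with DESeq2 size factors, beside 918 of 18087. DESeq2 marked 0 members as outliers, beside 0.449% of the genes with a count. The count of members called variable was 0 under each alternative run. The count over all genes was less stable: 15 became 173 with no filter on low counts, 0 with a robust prior (785 at an unadjusted p of 0.05) and 137 by DESeq2's dispersion outliers, and leaving out a replicate gave 7 without replicate 1, 80 without replicate 2 and 33 without replicate 3; the cause was not tested. Per kilobase of exon, the median was 50.3 for the members and 26.4 for the muscle-type members, the Acta2 share of the actins 43.1% and the Myh11 share of the heavy chains 68.3%, by the construction of that scale. Without the members that have any overlapped exon, the muscle-type median was 86.2 CPM in place of 110.3 CPM. Besides Tagln, Pln and Smtn, that set leaves out Mylk, Des and Ppp1r12b, with only 6.85%, 5.86% and 4.74% of exonic length overlapped. The lower median is therefore no measure of how overlap affects the counts, in either direction. The muscle-type mean deviation in replicate 2 kept its sign, from -0.12 to -0.09, under other scalings, pseudocounts and gene sets, including the set without overlapped members, which was chosen after seeing the data. All 225 recomputed member means lay within 1 SD. For those without 1 replicate this says little, because dropping 1 of 3 values cannot by itself move a mean by 1 SD. The other scalings moved a member mean by at most 0.348%. Counting error is small at these depths, and 3 mice set the limit. No paired analysis was possible because the samples form 1 group.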

Other observations

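The levels of genes whose exons lie under exons of the other strand were set out for the whole table, since Tagln and Pln are among them. In GENCODE M21, 175 protein-coding genes of the table have over 50% of their exonic length in that position; their median level was 0.203 CPM per kilobase of exon, and 44.0% reached a mean of 1 CPM. The 14799 protein-coding genes with no such overlap had a median of 1.08 CPM per kilobase, and 58.7% reached 1 CPM. Genes with an overlap of up to 10% (3188 genes) and of 10 to 50% (1699 genes) had medians of 3.64 and 2.46 CPM per kilobase, above those without overlap, so the level did not follow the overlap in order. The cause was not tested. With the whole level of a gene divided by its exon outside the overlap, Tagln had 17.1, Pln 26.6, Smtn 65.6, Cnn3 90.8, Vcl 33.3 and Ilk 3.76 CPM per kilobase. These values take every read to lie outside the overlap, which was not measured.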
